A study of Homo sapiens with 3 samples.

Results

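The 8 genes described here encode transcription factors that set the identity of the intestinal epithelium: CDX1, CDX2, HNF4A, HNF4G, GATA6, ATOH1, SOX9 and ELF3. They were taken by gene name from a deposited table of 58302 genes, in which each name had a single row. The rule of choice used no measured value, though earlier results of these data were known at the time. The table covers 3 libraries of total RNA from HCT116 cells, an established line grown from 1 human colorectal tumour. In 2 of the libraries, called siRNA 1 and siRNA 2 here (si1 and si2 in the labels), the cells had received different siRNAs meant to lower DUOX2, an NADPH oxidase. The remaining library, labelled NC with an siRNA sequence of its own, is taken as the control. The sources used here do not give the dose, the time after transfection or the number of cultures. Where p-values appear they measure the spread between the 2 siRNA libraries only, which may be technical and also holds any difference between their sequences. In these bulk libraries, fewer cells that express a gene and less of its RNA per cell cannot be told apart.

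In the gut, CDX1 and CDX2 are homeobox factors that give the posterior endoderm its intestinal character, and CDX2 is widely used as a marker of colorectal origin. HNF4A and HNF4G are paired nuclear receptors that drive absorptive enterocyte genes, GATA6 is a zinc-finger factor of endoderm and crypt cells, and ELF3 is an epithelial ETS factor. ATOH1 is the basic helix-loop-helix factor that commits progenitors to the secretory lineages and is held down by Notch signalling. SOX9 is an HMG-box factor of crypt stem and progenitor cells and of Paneth cells.

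The siRNAs are shown because each enters every comparison with the control. All 3 are duplexes of 19 base pairs with TT overhangs, and the antisense strands are given 5′ to 3′ with the seed, bases 2 to 8, in capitals.
siRNA 1 antisense: aACCACUAuguuguccucc
siRNA 2 antisense: aUGAAGGAucgcaucaugg
Control siRNA antisense: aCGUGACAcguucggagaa
The seeds differ from one another, and the full target sequences of siRNA 1 and siRNA 2 were found in DUOX2. The letters complementary to a seed are TAGTGGT for siRNA 1, TCCTTCA for siRNA 2 and TGTCACG for the control, and they were searched in the longest transcript per gene (GENCODE 29), read in the sense direction. TAGTGGT was found in 12.2% of 19788 protein-coding genes, TCCTTCA in 31.2% and TGTCACG in 6.69%. Among the 8 factors, TAGTGGT was found in HNF4A, TCCTTCA in SOX9 and HNF4G, and TGTCACG in none. CDX2, ELF3, GATA6, CDX1 and ATOH1 held none of the 3. The sites in HNF4A lie in the 3′ UTR in exon 10 of 10, on the plus strand at chr20:44430570-44430576 and chr20:44433543-44433549 (GRCh38), and the site in SOX9 lies in the 3′ UTR in exon 3 of 3 at chr17:72126168-72126174, plus strand. They are shown with the seed complement in capitals.
HNF4A, first site for siRNA 1: gccaaggccTAGTGGTagtaagaat
HNF4A, second site for siRNA 1: agccaggtaTAGTGGTgtgtgccta
SOX9, site for siRNA 2: aatatggcaTCCTTCAatttctgta
These matches are letters in the transcript, and nothing in the libraries shows whether an siRNA acts there.

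Library totals were 17589502 counts (control), 19130768 (siRNA 1) and 18832672 (siRNA 2). A gene with 0 counts could still have a level of up to 3 counts, which is 0.171 CPM (counts scaled to a library total of 1e6) in control cells, 0.157 under siRNA 1 and 0.159 under siRNA 2. The targeted gene, DUOX2, had 2 counts in control cells, 2 under siRNA 1 and 0 under siRNA 2, all at or under that limit, so it gives no check of the labels. All 8 epithelial markers were present in every library, from 54 counts upwards, with a summed level of 5244 CPM in control cells, 3280 under siRNA 1 and 4887 under siRNA 2. Of 10 retina markers, looked for because the extraction protocol in the labels speaks of retinas, 7 had 0 counts in every library, CRX, a photoreceptor transcription factor, among them, and their sum was between 0.796 and 1.36 CPM. Fibroblast markers summed to between 8.12 and 12.9 CPM with DCN, LUM, FAP and COL1A2 at 0, and the most abundant were ACTA2 (160, 141 and 90 counts) and COL1A1 (57, 39 and 57). Leukocyte markers summed to between 2.67 and 5.40 CPM with 5 of 10 at 0, among them PTPRC, the pan-leukocyte antigen CD45. CD68 had 56, 17 and 32 counts but shares 81.7% of its exon bases with AC016876.2. Among the fibroblast markers, ACTA2 shares 12.8% of its exon bases with FAS, on the opposite strand, which had 492, 507 and 615 counts. A further 17.3% is shared with ACTA2-AS1, also on the opposite strand, at 3, 4 and 8 counts. Of 10 hepatocyte markers 6 had 0 counts in every library. SERPINA1, which makes alpha-1-antitrypsin, had 2866, 2805 and 2938 counts (control, siRNA 1, siRNA 2, the order of all such triplets below), and ALB, the albumin gene, had 1, 0 and 0.

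SOX9 and CDX2 were the abundant members, ELF3 and HNF4A were present at a low level, GATA6 was close to the limit of detection, and CDX1, HNF4G and ATOH1 had 0 counts in all 3 libraries. Levels between genes are compared per length, as FPKM (counts scaled by gene length and library total). In the control library the authors' FPKM was 56.4 for SOX9, 25.3 for CDX2, 2.15 for ELF3, 0.963 for HNF4A and 0.223 for GATA6. With siRNA 1 it was 57.6, 10.4, 1.33, 1.05 and 0.147 in the same order, and with siRNA 2 it was 49.4, 14.2, 1.58, 0.601 and 0.0895. The order of the 5 detected factors in the authors' FPKM was therefore the same in each library.

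**Figure D1:**
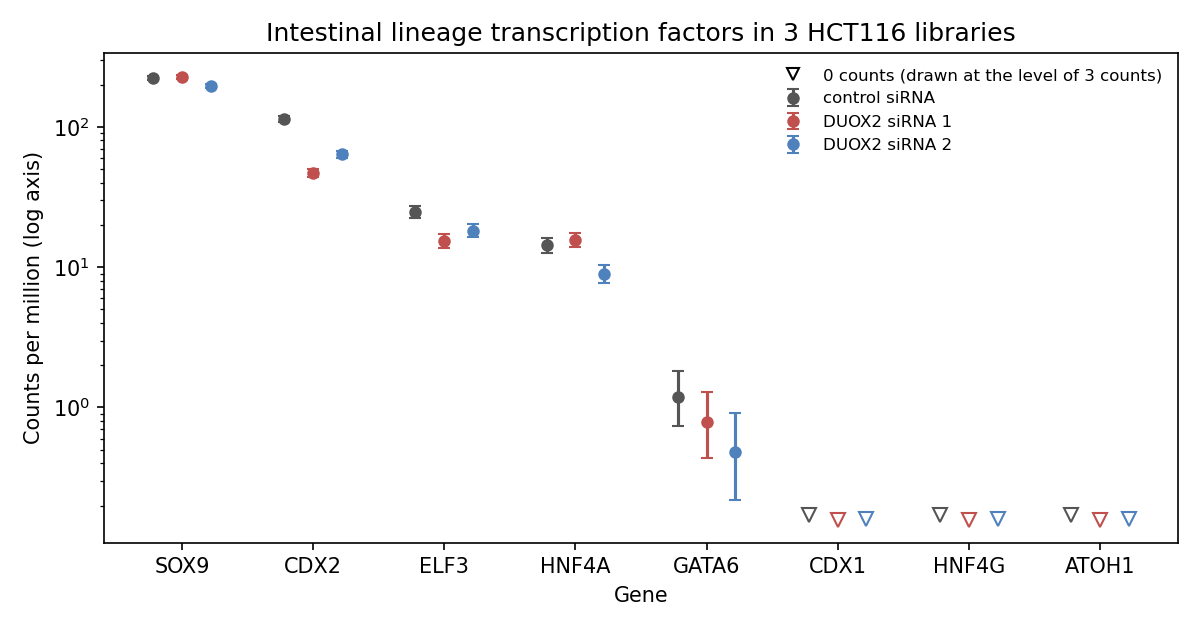
Level of each factor in CPM (log axis) in the control library and the 2 siRNA libraries, with 95% Poisson intervals for counting error and open triangles for 0 counts, drawn at 3 counts. SOX9 lies between 195 and 226 CPM, CDX2 is lower with both siRNAs, and 3 factors were not detected.

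The length behind the authors' FPKM bears on this order. For 92.1% of 13047 genes with at least 50 control counts, the length implied by the FPKM was within 1 base of the summed length of all distinct exons of the gene in GENCODE 29, so that exons overlapping between transcripts are counted more than once. It was within 1 base of the merged exon length for 12.3% of genes. The implied length was 14932 bases for HNF4A, which has 9 annotated transcripts and a merged exon length of 7311 bases, and 11551 bases for ELF3, which has 10 transcripts and a merged length of 7191. For SOX9 the implied and merged lengths were both 3935 bases, and for CDX2 they were 4488 and 4122.

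With merged lengths, which were chosen after the values were seen, the control level of HNF4A was 1.97 FPKM, 2.04 times the authors' value, and that of ELF3 was 3.45 FPKM, 1.61 times the authors' value. CDX2 was then at 27.6 FPKM, GATA6 at 0.303 and SOX9 at 56.4. SOX9 and CDX2 stayed above the rest by far more than counting error. HNF4A and ELF3 did not differ beyond counting error with siRNA 1, at 2.14 FPKM for HNF4A and 2.13 for ELF3, where they had 300 and 293 counts. Fold changes between libraries taken from counts do not depend on length. Those from limma on log2(FPKM + 1), an alternative used below, do depend on it through the added 1.

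**Figure D2:**
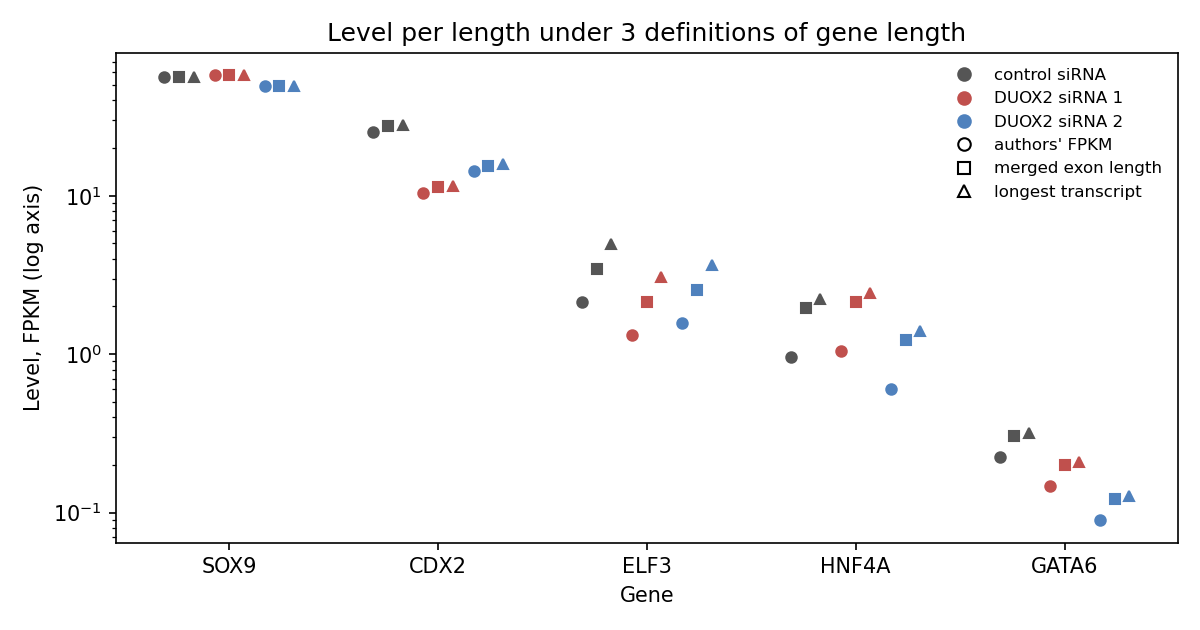
FPKM (log axis) of the 5 detected factors in each library, with the authors' length (circles), the merged exon length (squares) and the longest transcript (triangles). The symbols coincide for SOX9 and spread most for HNF4A and ELF3, whose control values are 2.32 and 2.31 times the authors' with the longest transcript.

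Among protein-coding genes with at least 1 count (14679 in control cells, 14358 under siRNA 1 and 14422 under siRNA 2), ranked by FPKM with merged lengths, SOX9 stood at percentile 96.0 in control cells, 96.3 under siRNA 1 and 95.2 under siRNA 2. CDX2 stood at 89.9, 75.2 and 80.5, so its place among all expressed genes was lower in both siRNA libraries. ELF3 stood at 44.4, 39.0 and 40.6, HNF4A at 34.0, 39.1 and 29.05 and GATA6 at 15.3, 13.2 and 9.97.

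The labels set cells described as low in DUOX2, which the DUOX2 counts cannot check, beside control cells, and the question here is whether the 8 factors differed between these libraries. None of the 8 passed the test, edgeR's quasi-likelihood test with Benjamini-Hochberg adjustment over all 17263 genes tested at a threshold of 0.05, against 0.0579% of all tested genes. Of the 5 factors that entered the test, 1 had an unadjusted p under 0.05 in edgeR (CDX2), against 26.0% of all tested genes. DESeq2 called 0 of the factors and 567 genes over the whole table, and gave no adjusted p for GATA6. With limma no gene of the table was called. No factor differed by 2-fold or more under both siRNAs, against 9.05% of all tested genes in either direction and 5.05% in the lower one. CDX2, ELF3 and GATA6 were below the control with both siRNAs, where 41.6% of all tested genes were. HNF4A and SOX9 lay on either side of the control with the 2 siRNAs, where 16.4% of tested genes did. The median log2 fold change over the 5 factors was -0.42 with siRNA 1 and -0.61 with siRNA 2, against 0.02 and -0.01 over all tested genes. The median of the mean of both was -0.47, and -0.04 with the GC trend described below removed.

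CDX2 (ENSG00000165556) lies on chromosome 13, 27962137 to 27971139, minus strand, in GRCh38. It had 2001 counts in control cells, 893 under siRNA 1 and 1204 under siRNA 2, which is 114 CPM (95% Poisson interval 109 to 119), 46.7 CPM (43.7 to 49.8) and 63.9 CPM (60.4 to 67.6). The control was the highest library, siRNA 1 the lowest, and the 3 counting intervals did not overlap. The log2 ratio to the control, scaled by TMM (edgeR's trimmed mean of M values), was -1.15 with siRNA 1 (95% counting interval -1.26 to -1.03) and -0.77 with siRNA 2 (-0.88 to -0.67). These are levels 2.21-fold and 1.71-fold below the control. The fitted log2 fold change was -0.95 ± 0.24 SE, which did not pass in edgeR (adjusted p = 0.125). In DESeq2 the adjusted p was 0.0584. siRNA 1 lay below siRNA 2 by a log2 ratio of -0.37 (-0.50 to -0.25), which is beyond counting error, though each siRNA had 1 library and the difference was not tested.

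Over all tested genes the fold change varied with transcript GC content, so the values of each detected factor are set beside the trend at the gene's own GC content. The longest CDX2 transcript has 56.4% GC. At that GC content the trend of all tested genes stood at a log2 fold change of -0.51 with siRNA 1 and -0.39 with siRNA 2. CDX2 was below the trend by -0.63 with siRNA 1 and -0.38 with siRNA 2, and with the trend removed the fitted log2 fold change was -0.50 (edgeR adjusted p = 0.495). About as much of the lower CDX2 value therefore lies in the trend as beyond it, and the part that the GC trend has in the result was not tested.

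ELF3 (ENSG00000163435) lies on chromosome 1, 202007945 to 202017188, plus strand. It had 436 counts in control cells, 293 under siRNA 1 and 343 under siRNA 2. The control was again the highest library and siRNA 1 the lowest, and the siRNA libraries differed from each other by a log2 ratio of -0.17 (95% counting interval -0.40 to 0.06), within counting error. The log2 ratio to the control was -0.55 with siRNA 1 (-0.77 to -0.34) and -0.38 with siRNA 2 (-0.59 to -0.18), and the fitted value was -0.47 ± 0.23 SE (edgeR adjusted p = 0.259). The trend at its GC content of 56.0% was -0.49 and -0.37, so ELF3 sat on the trend, at -0.07 and -0.01 after its removal. An antisense gene, ELF3-AS1, and a same-strand gene, AL691482.3, share 9.23% of the exon bases of ELF3 each. They had 13, 8 and 11 counts and 4, 3 and 4 counts, small beside those of ELF3.

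HNF4A (ENSG00000101076) lies on chromosome 20, 44355700 to 44434596, plus strand. It had 253 counts in control cells, 300 under siRNA 1 and 169 under siRNA 2. The siRNA libraries were the highest and the lowest, with the control between them, so their mean hides opposite values. The log2 ratio to the control was 0.26 with siRNA 1 (95% counting interval 0.02 to 0.51) and -0.62 with siRNA 2 (-0.91 to -0.33). Between the siRNAs the log2 ratio was 0.88 in favour of siRNA 1 (0.61 to 1.17), the widest difference between siRNAs among the 4 factors with at least 50 counts. The fitted log2 fold change was -0.11 ± 0.41 SE (edgeR adjusted p = 0.876). The trend at its GC content of 52.8% was -0.25 with siRNA 1 and -0.19 with siRNA 2, and HNF4A was at 0.51 and -0.43 after its removal. HNF4A holds the seed complement of siRNA 1 shown above and was higher with siRNA 1 than with siRNA 2. SOX9, described next, holds that of siRNA 2 and was lower with siRNA 2. Each siRNA had 1 library, and whether the sites have a part in these values was not tested.

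SOX9 (ENSG00000125398) lies on chromosome 17, 72121020 to 72126420, plus strand. It had 3902 counts in control cells, 4333 under siRNA 1 and 3664 under siRNA 2, or 222, 226 and 195 CPM. The control lay between the siRNA libraries in TMM-scaled level. The log2 ratio was 0.17 with siRNA 1 (95% counting interval 0.11 to 0.23) and -0.13 with siRNA 2 (-0.19 to -0.06), both beyond counting error on this scaling. Scaled by library totals, the log2 value with siRNA 1 was 0.03, and the CPM intervals of the control (215 to 229) and siRNA 1 (220 to 233) overlapped. The fitted value was 0.03 ± 0.21 SE (edgeR adjusted p = 0.943), and it was -0.08 when libraries were scaled by their totals, a scaling that moves the median of all genes by -0.13 with siRNA 1 and -0.06 with siRNA 2. As measured, SOX9, the most abundant of the 8, was also the closest of the detected factors to the control with both siRNAs. The trend at its GC content of 51.0% was -0.13 with siRNA 1 and -0.09 with siRNA 2. After its removal SOX9 was at 0.30 and -0.04, and ELF3 was nearer to the trend, at -0.07 and -0.01.

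GATA6 (ENSG00000141448) lies on chromosome 18, 22169443 to 22202528, plus strand. It had 21 counts in control cells, 15 under siRNA 1 and 9 under siRNA 2, or 1.19 CPM (95% Poisson interval 0.739 to 1.82), 0.784 CPM (0.439 to 1.29) and 0.478 CPM (0.219 to 0.907). The values stand in the order control, siRNA 1, siRNA 2, and their counting intervals overlap. The log2 ratio was -0.47 with siRNA 1 (-1.53 to 0.56) and -1.26 with siRNA 2 (-2.57 to -0.07). The fitted value was -0.81 ± 0.58 SE (edgeR adjusted p = 0.398). The counting interval excludes 0 for siRNA 2 and includes it for siRNA 1, and with 9 to 21 counts both are wide. The trend at the GC content of GATA6, 55.3%, was -0.43 with siRNA 1 and -0.33 with siRNA 2. After its removal from the log2 CPM fold changes (prior count of 2), GATA6 was at 0.01 and -0.77. GATA6-AS1 and AC091588.3, which share exon bases with GATA6 on the opposite strand, had 0 counts.

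CDX1 (ENSG00000113722, chromosome 5, 150166795 to 150184558), HNF4G (ENSG00000164749, chromosome 8, 75407914 to 75566843) and ATOH1 (ENSG00000172238, chromosome 4, 93828753 to 93830964), all on the plus strand, had 0 counts in all 3 libraries. Per merged length, 3 counts in the control would be 0.0970 FPKM for CDX1, 0.0355 for HNF4G and 0.0771 for ATOH1. Of each pair of relatives, one was therefore present and the other not detected: CDX2 but not CDX1, and HNF4A but not HNF4G. These 3 genes did not pass the filter on low counts and have no fold change.

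**Figure D3:**
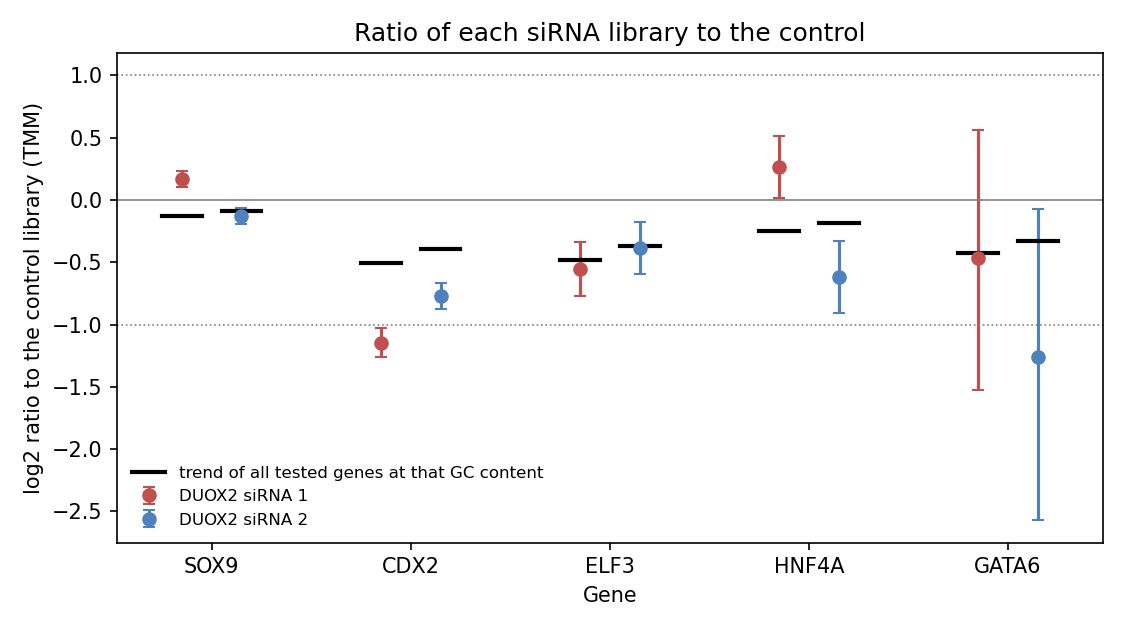
log2 ratio of each siRNA library to the control for the 5 detected factors (TMM scaling), with 95% intervals for counting error, black dashes for the trend of all tested genes at the same GC content and dotted lines at 2-fold. CDX2 lies below its dashes with both siRNAs, ELF3 lies on them, and HNF4A and SOX9 have 1 value above 0 and 1 below.

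Other transcription factors of the intestine and endoderm were in part not detected. Of 31 on the list, 8 had 0 counts in every library, among them ISX, a CDX2 target, SPDEF, a goblet cell factor, and NEUROG3, the enteroendocrine factor. Over the whole table, 31282 of 58302 genes, coding or not, had 0 counts in every library. The listed factors are all protein-coding, and 14679 protein-coding genes had at least 1 count in control cells, beside 19788 searched above for seed complements. Of the 18 that entered the test none passed, 12 were below the control with both siRNAs and 4 above (41.6% and 41.9% of all tested genes), and 5 had an unadjusted p under 0.05 in edgeR, where 26.0% of all tested genes did. The median of the mean log2 fold change was -0.43, and -0.23 with the GC trend removed.

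BHLHA15, the secretory cell factor MIST1, had 184, 61 and 92 counts (log2 fold changes -1.54 and -1.02, as log2 CPM with a prior count of 2 for all list genes, edgeR adjusted p = 0.129). After removal of the trend it was at -0.02 and 0.13. FOXA2, a forkhead pioneer factor of endoderm, had 58, 12 and 32 counts. PROX1, a homeobox factor found in colorectal tumours, was higher in both siRNA libraries with 434, 922 and 691 counts (log2 fold changes 1.10 and 0.63, edgeR adjusted p = 0.152). With the trend removed PROX1 was at 0.65 and 0.28. NR5A2, a nuclear receptor of the crypt named after its values were seen, was the gene of this list at least 2-fold above the control with both siRNAs, at 2, 13 and 8 counts. Its control value is under the limit of 3 counts, and it entered the test through siRNA 1 alone.

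Among 21 relatives of the 8 factors in the same protein families, 16 entered the test, 0 passed, 11 were below the control with both siRNAs and 1 was above, against 0.0579%, 41.6% and 41.9% of all tested genes. CDX4 had 0 counts in every library, as CDX1 did. In the GATA family, GATA2, best known from blood stem cells, had an authors' FPKM of 6.78 in control cells, 3.27 under siRNA 1 and 4.80 under siRNA 2, above GATA6 in every library, and GATA4 had 0 counts. Among nuclear receptors, RXRA, a common partner of other receptors, had 1384, 895 and 942 counts, and NR2F6 had 561, 205 and 264 (log2 fold changes -1.42 and -1.12, edgeR adjusted p = 0.112). NR2F1 had 640, 348 and 485 counts, and SOX12, a SOXC factor, 516, 294 and 350. The list's median of the mean log2 fold change was -0.34 as measured and 0.01 with the GC trend removed, and NR2F6 was then at 0.11 and 0.04.

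Genes that these factors control in the normal gut were largely not detected. Of 30 absorptive enterocyte genes, 13 had 0 counts in every library and 20 had at most 3 counts in each. Those at 0 included CDH17, the intestinal cadherin and a CDX2 target, SI, the sucrase-isomaltase of the brush border, and GUCY2C, the guanylin receptor. Of all 58302 genes in the table, coding or not, 31282 had 0 counts in every library and 37837 at most 3 in each. The listed genes are all protein-coding, a class in which 0 counts were less common. In control cells 14679 protein-coding genes had at least 1 count, beside the 19788 searched above for seed complements. The list summed to 120 CPM in control cells, 93.5 under siRNA 1 and 99.6 under siRNA 2.

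Of the 5 enterocyte genes tested, 0 passed and 4 were below the control with both siRNAs, against 41.6% of all tested genes. VIL1, the microvillus protein villin, had 1189, 883 and 970 counts. The gene shares 44.0% of its exon bases with USP37 on the opposite strand, and since the treatment of strand is not given in the sources used here, its counts are uncertain. USH1C, a scaffold of the microvillus tip, had 474, 324 and 413 counts. MUC13, a membrane mucin, had 361, 531 and 421, and SLC5A1, the intestinal glucose transporter, had 52, 32 and 40.

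Of the genes of secretory cells, the lineages that ATOH1 specifies, most were not detected or were at a few counts. Of 20 on the list, 10 had 0 counts in every library, including TFF3, AGR2 and SPDEF of goblet cells, and 13 had at most 3 counts in each. Over all 58302 genes, coding or not, these numbers were 31282 and 37837. The listed genes are all protein-coding, a class in which 0 counts were less common, as given above for the enterocyte genes. MUC2, the goblet cell mucin, had 2, 2 and 0 counts. GFI1, a zinc-finger repressor that acts after ATOH1, was the most abundant of the 5 that entered the test, at 172, 97 and 103 counts (log2 fold changes -0.80 and -0.77, edgeR adjusted p = 0.174). With the GC trend removed GFI1 was at -0.31 and -0.39. CHGB, an enteroendocrine granule protein, had 83, 64 and 73 counts, and REP15 had 70, 97 and 90 but shares 72.4% of its exon bases with AC009509.1, which had 0, 5 and 0 counts. Of the 5 tested, FCGBP, a goblet cell mucus protein named after its values were seen, was the one at least 2-fold below the control with both siRNAs. It had 12, 0 and 4 counts and entered the test through the control library alone. CHGA, at 13, 0 and 0 counts, and CREB3L1, at 7, 0 and 0, did not enter the test. With the siRNA libraries set to 3 counts, CHGA was at least 4.71-fold lower with siRNA 1 and 4.64-fold lower with siRNA 2.

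Notch signalling, in which ligands of the DLL and JAG families activate NOTCH receptors and RBPJ then turns on HES repressors of ATOH1, was largely detected. Of 32 Notch genes 1 had at most 3 counts in each library (MFNG, at 2, 2 and 0). The other 31 entered the test and 0 passed, with 12 at an unadjusted p under 0.05 in edgeR, where 26.0% of all tested genes were. The number below the control with both siRNAs was 20, or 64.5% of those tested, and 9 were above, against 41.6% and 41.9% of all tested genes. The median of the mean log2 fold change was -0.28, and -0.07 with the GC trend removed.

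Among ligands, JAG2 had 1014 counts in control cells, 463 under siRNA 1 and 454 under siRNA 2 (log2 fold changes -1.11 and -1.19, edgeR adjusted p = 0.112, DESeq2 adjusted p = 0.0235). With the trend removed JAG2 was at -0.04 and -0.39. RFNG, a Fringe enzyme that adds sugars to NOTCH receptors, had 337, 58 and 162 counts and shares 21.6% of its exon bases with GPS1. Among the repressors, HES4 had 111, 32 and 31 counts and HES7 158, 58 and 74, and HES1, the main Notch effector in the crypt, had 570, 390 and 383 (edgeR adjusted p = 0.183). HES4 has 73.9% GC in its longest transcript, and its log2 fold changes of -1.72 and -1.81 stood at -0.0002 and -0.51 after removal of the trend. NOTCH4, named after its values were seen, had 0 counts in the control and 23 with each siRNA, at least 7.05-fold higher with siRNA 1 and 7.16-fold higher with siRNA 2 when the control is set to 3 counts (edgeR adjusted p = 0.109). It entered the test through the siRNA libraries alone. None of the other receptors was higher with both siRNAs. NOTCH1 had 2131, 973 and 1109 counts (log2 fold changes -1.11 and -0.98, edgeR adjusted p = 0.112), and stood at -0.12 and -0.23 with the trend removed. NOTCH2 had 3990, 3346 and 4166 counts and NOTCH3 had 18, 2 and 9. RBPJ was higher with both siRNAs, at 1039, 1386 and 2163 counts, and stood at -0.12 and 0.59 with the trend removed.

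The epithelial markers were not all on the same side of the control as CDX2. KRT19, a simple-epithelium keratin, had 16482 counts in control cells, 6102 under siRNA 1 and 8563 under siRNA 2 (log2 fold changes -1.41 and -0.98, edgeR adjusted p = 0.112, DESeq2 adjusted p = 0.00423), and CLDN3, a tight junction claudin, had 253, 54 and 106. EPCAM, the epithelial adhesion molecule, was higher in both siRNA libraries, at 7646, 12181 and 11926 counts (edgeR adjusted p = 0.133), as was CLDN7 at 906, 1498 and 1564. CLDN4 had 193, 149 and 835 counts. With the GC trend removed, the fitted log2 fold change went from -1.18 to -0.39 for KRT19 and from -1.68 to -0.48 for CLDN3. For CLDN7 it went the other way, from 0.75 to 1.41. The part of any such difference in the CDX2 values was not tested.

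Each detected factor with at least 50 counts had a nearest neighbour in the plane of the 2 fold changes among the listed genes, with likeness taken as the distance on the log2 scale over those 2 values, which share the control. NUMBL, a Numb-like adaptor with 508, 246 and 280 counts, was nearest to CDX2 at a distance of 0.17. KLF4, a factor of differentiated epithelium with 616, 402 and 493 counts, was nearest to ELF3 at 0.05. EHF, an ETS factor with 48, 52 and 31 counts, was nearest to HNF4A at 0.14, and ELF1, another ETS factor with 1931, 2296 and 1984 counts, was nearest to SOX9 at 0.16.

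**Figure D4:**
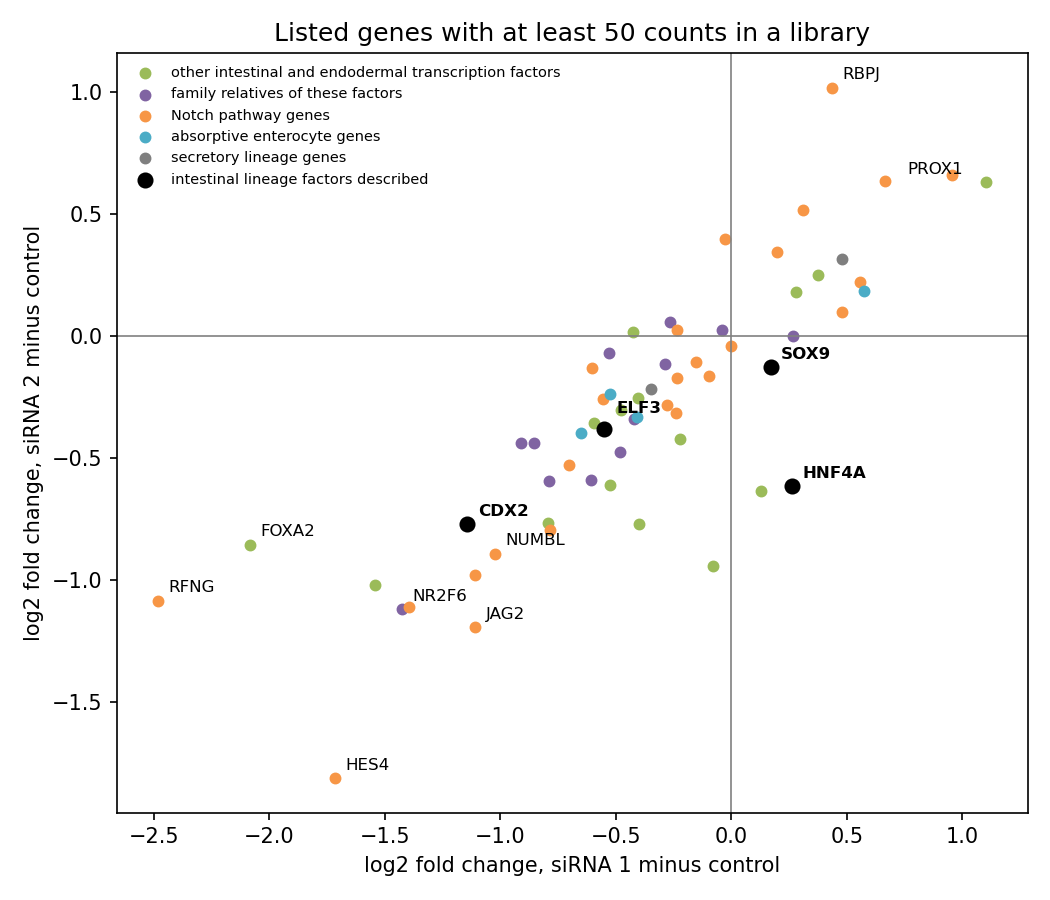
log2 fold change with siRNA 1 (x axis) and siRNA 2 (y axis) against the control for listed genes with at least 50 counts in a library (1 left out), each point a gene, coloured by list, with SOX9, CDX2, ELF3 and HNF4A in black. The axes share the control library, so nearness to the diagonal says little by itself, and CDX2 lies at -1.14 and -0.77, and HNF4A lies below the diagonal at 0.26 and -0.61.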

How the data were processed

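Total RNA of 3 HCT116 libraries was sequenced with the TruSeq RNA kit, per the labels. The deposited table holds unnormalized read counts for each gene and FPKM values computed by the authors. Bowtie 0.12.2 appears in the submitters' processing notes, as do 2 builds, GRCh38 and mm8, with no role stated. The sources used here do not give the counting program or its use of strand and of reads with several placements. The coordinates are on GRCh38: 97.6% of 58039 genes found in GENCODE 29 had identical ones.

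Counts were tested with edgeR 4.0.16 in R 4.3.3 (TMM, filterByExpr with a minimum count of 10, glmQLFit, glmQLFTest, Benjamini-Hochberg), with the siRNA libraries as replicates 1 and 2, 1 control, 1 residual degree of freedom and 4.66 prior ones. The script was tested on simulated data. Fold changes per siRNA used log2 CPM with a prior count of 2. Counting intervals are exact and at 95%, rest on the counts alone and leave out all other error, such as that between cultures and libraries. PCR copies were not marked by molecular identifiers, so their error is left out as well. The GC trend was a lowess curve (fraction 0.3) over the longest GENCODE 29 transcripts. Alternatives used DESeq2 1.42.0 and limma 3.58.1, the latter on log2(FPKM + 1). The factors, lists and tests were chosen with earlier results of these data known. Genes named from a list are the up to 4 with the largest mean fold change among those with at least 50 counts in a library, any that passed the test, and the nearest neighbours of the factors. Other genes of the lists were named after their values were seen. Of the genes this rule names, 1 is not reported here.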

Additional observations from a re-analysis of the deposited data

How the results depend on the processing

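No paired analysis was possible because the control has a single library without a replicate number. The number of genes called over the whole table was 10, and it was 567 with DESeq2 and 63 when the threshold on the edgeR adjusted p was 0.10. It was 0 when the GC trend was removed, when limma was run on log2(FPKM + 1), when every library had to reach 1 CPM and when no filter was used. The number of the 8 factors called was 0 in each of these fits and with library totals or DESeq2 size factors in edgeR, where 9 and 10 genes were called. At 1.5-fold in place of 2-fold, 1 factor (CDX2) was beyond the threshold with both siRNAs, against 15.5% of all tested genes at least 1.5-fold lower. With only 1 siRNA library, which allows no test, 1 factor was beyond 2-fold with either: CDX2 with siRNA 1 and GATA6 with siRNA 2. The log2 fold change of CDX2 ran from -1.14 (siRNA 1 library alone, not fitted) to -0.50 (fitted, GC trend removed) over its alternatives. Its adjusted p ran from 0.0584 (DESeq2) to 0.495 (edgeR, GC trend removed). The log2 fold change of ELF3 ran from -0.56 to -0.04. Of 321 fold changes recomputed over 36 named genes, 15 changed sign. SOX9 moved to -0.076 with library totals, -0.078 with limma on FPKM, -0.13 without siRNA 1 and 0.17 without siRNA 2. HNF4A moved to 0.12 with the GC trend removed, 0.26 without siRNA 2 and -0.61 without siRNA 1. With the GC trend removed the values were 0.038 for BHLHA15, 0.066 for NR2F6, 0.12 for SOX12, 0.0057 for GATA2, 0.040 for USH1C, 0.49 for COL1A1, 0.29 for SERPINA1 and -0.35 for ELF1. CLDN4 was at -0.35 without siRNA 2 and 2.06 without siRNA 1, and EHF at 0.13 and -0.64. The cause of these moves was not tested, beyond the single libraries that the last values rest on. For CDX1, HNF4G, ATOH1 and DUOX2 the depth allows no statement below 3 counts.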
